A study of Homo sapiens with 21 samples.

Results

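The effect of lapatinib on its own was measured as the difference between 3 RNA-seq libraries of Hs578T cells treated with lapatinib (3.16 μM) and 3 libraries of Hs578T cells treated with the solvent DMSO. These are 6 of the 21 libraries of the series, which holds 7 groups of 3 replicates. All genes of the count table that passed a filter on low counts were compared, which left 16036 of 28395 genes. Hs578T is a human triple-negative breast cancer (TNBC) cell line with mesenchymal features, and all groups were collected 8 h after treatment. The other groups received nilotinib (1 μM), THZ531 at 0.1 μM or 1 μM, or 0.1 μM THZ531 together with lapatinib or nilotinib. THZ531 blocks the kinases CDK12 and CDK13, which act on RNA polymerase II as it elongates transcripts. The series was made to compare these treatments, and the lapatinib group stands in it as the kinase inhibitor without THZ531. Per the study, the replicates came from separate experiments, and the labels do not say whether equal replicate numbers mark the same experiment.

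Lapatinib blocks the kinase domains of EGFR and ERBB2 (HER2), receptors that signal through the ERK and PI3K-AKT pathways. Several of the genes described here belong to stress programmes. In the integrated stress response, kinases that sense lack of amino acids, stress of the endoplasmic reticulum (ER) and other strains phosphorylate the initiation factor eIF2, general translation falls, and the transcription factor ATF4 is made and induces genes for amino acid synthesis, amino acid uptake and tRNA charging. In the sterol response, low cholesterol in the ER membrane lets SREBP2 move to the nucleus, where it induces the enzymes of cholesterol synthesis and INSIG1, which holds SREBP2 back. The unfolded protein response raises the chaperones of the ER.

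The total count was 97612207 to 102092309 per lapatinib library and 106023299 to 112229052 per DMSO library, so that all lapatinib libraries had lower totals (exact permutation test, two-sided p = 0.1, the smallest p that 3 against 3 allows). Of the counts from 1 to 20, 61.6% to 66.4% were even in each of the 21 libraries, so the ends of a read pair may have been counted separately, in which case totals and counts are up to 2 times the number of fragments. The 13 mitochondrially encoded mRNAs held 1.25% ± 0.0895 (SD, n = 3) of counts in DMSO and 1.38% ± 0.114 with lapatinib (exact permutation test, two-sided p = 0.3). Levels are given as CPM, the count of a gene relative to the TMM-scaled total of its library, without correction for gene length, so that values of different genes are not compared. The 10 mesenchymal markers were all expressed, with VIM at 6390 to 7170 CPM and AXL at 1320 to 1420 CPM in the 6 libraries. Of 15 luminal and epithelial markers, EPCAM stayed at or below 0.0518 CPM and CDH1 at or below 0.368 CPM. Other members of that list were expressed. Its 10 tested members summed to 161 to 171 CPM in DMSO and 164 to 168 CPM with lapatinib. Of 10 markers of blood, endothelial and liver cells, MS4A1, CDH5 and HBB were listed at 0 in all 6 libraries, CD68 was at 97.2 to 124 CPM and PTPRC at 0.84 to 1.39 CPM. The summed level of the 5 tested markers of this list was 105 to 125 CPM in DMSO and 98.8 to 125 CPM with lapatinib. None of the tested markers on the mesenchymal, luminal and other-cell lists passed the test between lapatinib and DMSO. Without nilotinib replicate 1 the epithelial splicing factor ESRP1 passed, at 0.147 to 0.366 CPM in DMSO and 0.636 to 1.34 CPM with lapatinib (adjusted p = 0.142 with all libraries and 0.0139 without it).

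A library outside the comparison stood apart in the genes that are described here. The summed level of 61 integrated stress response genes was 10000 CPM in nilotinib replicate 1, against 7290 and 7380 CPM in the other nilotinib libraries, 8410 to 9250 CPM with lapatinib and 6760 to 6950 CPM in DMSO. In 58 of the 61 genes nilotinib replicate 1 lay above both other nilotinib libraries, with a median log2 difference of 0.53 from their mean. For the sterol genes its sum was 2120 CPM against 2070 and 2080 CPM. Since all 21 libraries share the estimate of the spread, this library touches also the test of lapatinib against DMSO, and results are therefore given with it (21 libraries) and without it (20 libraries). It was singled out for its level in these same genes, so that more calls among them without it are favoured by the choice. Over all tested genes it was not the most distant library. It had 235 genes more than 0.5 on the log2 scale from the mean of the other libraries of its group. That number was 341 in lapatinib replicate 1, 262 in DMSO replicate 2 and 1406 in replicate 2 of 1 μM THZ531.

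Lapatinib changed few genes. At an adjusted p-value under 0.05, 41 genes were higher with lapatinib than in DMSO (0.256% of the genes tested) and 9 were lower (0.0561%). Of these, 27 rose and 7 fell by more than 0.5 on the log2 scale, and 6 rose and 2 fell by more than 1. The median log2 fold change (FC) was 0.57 over the higher genes and −0.62 over the lower genes, against −0.01 over all genes tested. Without nilotinib replicate 1, 85 genes were higher (0.522%) and 18 lower (0.111%), and all 50 genes still passed. When the 6 libraries were fitted alone, 90 genes were higher (0.598%) and 16 lower (0.106%), with 37 and 7 of the 50 among them. Leaving out any DMSO or lapatinib library from the 21 reduced the higher genes to between 6 and 10 and the lower genes to between 1 and 5. In these 6 fits, 7 genes passed each time (PLAT, INSIG1, STARD4, MSMO1, LIPG, SLC38A1 and EDN1), and 32 passed in none. Leaving out the same libraries from the fit without nilotinib replicate 1 gave 58 to 74 higher and 10 to 14 lower genes, and 38 of the 50 passed each time. With DESeq2, 99 genes were higher and 31 lower, including all 50.

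**Figure D1:**
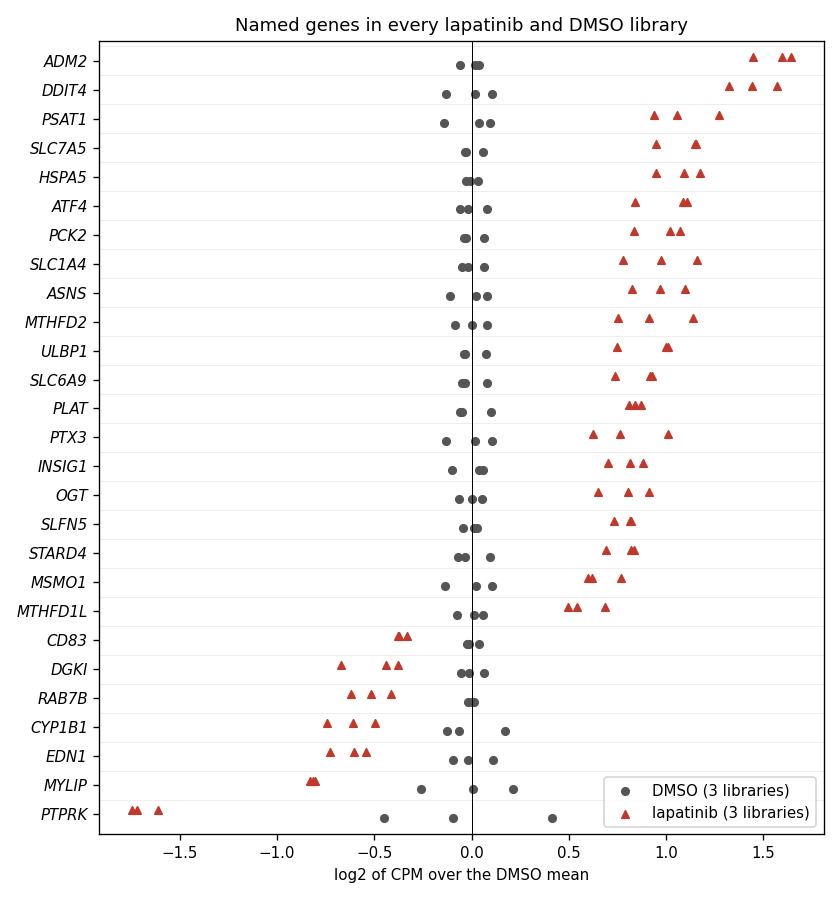
Level of the 20 genes with the largest rises and 7 of those with the largest falls in each of the 3 DMSO libraries (grey circles) and 3 lapatinib libraries (red triangles), as log2 of CPM over the DMSO mean of the gene, on the horizontal axis. In each of the 27 genes the lapatinib libraries lie on the same side of all DMSO libraries, which the choice of these genes required, from ADM2 at the top to PTPRK at the bottom.

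The largest group of higher genes belonged to the integrated stress response. Over 5 lists of its regulators, enzymes, transporters, aminoacyl-tRNA synthetases and secreted factors, 14 of 61 tested genes rose and none fell, and 32 rose without nilotinib replicate 1. In 47 of the 61 all lapatinib libraries lay above all DMSO libraries, against 7.84% of all genes, and in none did they all lie below, against 7.83%. The median log2 FC over the 61 genes was 0.40. Of all genes tested 0.256% rose, and 0.522% without nilotinib replicate 1. The counts of risen members in each list are to be read against these shares.

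ATF4 (chr22:39520559-39522686, build GRCh38.p14), the transcription factor at the centre of this response, stood at 78.1, 86.0 and 80.3 CPM in DMSO and at 175, 173 and 146 CPM with lapatinib. The groups did not overlap, and the log2 FC was 1.02 ± 0.197 (SE; adjusted p = 0.0283, and 1.5e-07 without nilotinib replicate 1). DDIT4 (chr10:72273924-72276036), an ATF4-induced inhibitor of mTORC1, rose from 7.83, 6.65 and 7.37 CPM to 21.6, 18.2 and 19.8 CPM, with a log2 FC of 1.45 ± 0.288 (adjusted p = 0.0324). Other regulators had estimates of similar size but did not pass with all 21 libraries. CHAC1, a glutathione-degrading enzyme, had a log2 FC of 1.36 (adjusted p = 0.0537), SESN2, a leucine sensor, 1.26 (0.0819), TRIB3, a pseudokinase that restrains ATF4, 1.19 (0.099), and DDIT3, which encodes CHOP, 0.90 (0.192). Without nilotinib replicate 1 these adjusted p-values were 6.43e-05, 0.000637, 0.000197 and 0.0114. PPP1R15A, a subunit of the eIF2 phosphatase, differed by 0.16 (adjusted p = 0.904), and the eIF2 kinase genes EIF2AK3 and EIF2AK4 by 0.13 and −0.05 (adjusted p = 0.968 for both). In all, 2 of 16 regulators rose, and 9 rose without nilotinib replicate 1.

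Among 14 enzymes of amino acid synthesis and mitochondrial one-carbon metabolism, 5 rose with all libraries and 6 without nilotinib replicate 1. PSAT1 (chr9:78297125-78330093), a transaminase of serine synthesis, stood at 103, 91.2 and 107 CPM in DMSO and at 243, 209 and 193 CPM with lapatinib (log2 FC 1.09 ± 0.199, adjusted p = 0.0202). ASNS (chr7:97851677-97928441), which makes asparagine, rose from 48.9, 44.6 and 50.8 CPM to 103, 94.0 and 85.1 CPM, with a log2 FC of 0.97 ± 0.191 (adjusted p = 0.0316). In both genes the lowest lapatinib library was well above the highest DMSO library. The mitochondrial folate enzymes MTHFD2, MTHFD1L and ALDH1L2 rose by 0.94, 0.58 and 0.56 on the log2 scale (adjusted p = 0.0404, 0.043 and 0.0116). PHGDH, at the entry of serine synthesis, had a log2 FC of 0.31 (adjusted p = 0.293) and SHMT2 one of 0.15 (adjusted p = 0.75), and neither passed without nilotinib replicate 1 (adjusted p = 0.0851 and 0.676).

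Of 11 tested amino acid transporters 4 rose, and 7 rose without nilotinib replicate 1. SLC7A5 (chr16:87830023-87869507), the light chain of the leucine transporter LAT1, was at 95.3, 101 and 95 CPM in DMSO and at 215, 216 and 187 CPM with lapatinib (log2 FC 1.09 ± 0.198, adjusted p = 0.0202). SLC1A4, a carrier of neutral amino acids, rose by 0.98 (adjusted p = 0.0414), SLC6A9, a glycine transporter, by 0.86 (0.0286), and SLC38A1, a glutamine transporter, by 0.54 (0.00473). SLC38A1 is the member of these lists that passed also when any of the 6 libraries was left out. The cystine transporter SLC7A11 stood at 90.1, 78.3 and 77.9 CPM in DMSO and at 128, 116 and 120 CPM with lapatinib (log2 FC 0.57, adjusted p = 0.0847, and 0.000212 without nilotinib replicate 1). GARS1, the glycyl-tRNA synthetase, rose by 0.53 (adjusted p = 0.025) and XPOT, which exports tRNA from the nucleus, by 0.50 (0.0324). They were 2 of 14 genes of this list, 11 of which had no overlap between the groups and were higher with lapatinib (against 7.84% of all genes). Of 6 secreted factors and receptors, ADM2, a peptide of the calcitonin family, rose from 0.895, 0.958 and 0.944 CPM to 2.54, 2.91 and 2.82 CPM, the largest rise among the 50 genes (log2 FC 1.56 ± 0.263, adjusted p = 0.0116). GDF15, a stress-induced hormone, stood at 0.218, 0.414 and 0.408 CPM in DMSO and at 1.74, 1.44 and 1.05 CPM with lapatinib (log2 FC 2.03, adjusted p = 0.146, and 0.00594 without nilotinib replicate 1).

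The promoters of the 50 genes were searched on both strands for the ATF4-C/EBP composite element, written as TGATGNAA, in windows from 250 bases before to 50 bases after each annotated RefSeq start (build GRCh38.p14). A match was found for 6 of the 37 higher genes with a window (16.2%), namely ASNS, SLC1A4, MTHFD1L, GARS1, SLC38A1 and DDR2, for 0 of 7 lower genes, and for 2.93% of 12271 tested genes. Counted by window, 8 of 60 held one (13.3%), against 2.16% for tested genes and 3.62% of 35116 windows of all genes. Windows are not separate sites. Overlapping windows of MTHFD1L hold the same site, which lies 129 and 90 bases before a start and at base 25 from another. The sterol regulatory element TCACNCCAC, a site of SREBP, was found for 1 of the 37 genes (SLC1A4, in the window of another start) and for 1.41% of tested genes. These motifs were chosen with the gene lists known, and a match is a stretch of letters, not a measured binding site. The 30 bases around each match in the risen genes are shown because they hold the letters that the count rests on, 5′ to 3′ along the gene, with the match on either strand in capitals. In ASNS, MTHFD1L, GARS1, SLC1A4 and SLC38A1 the match begins 68, 129, 33, 7 and 4 bases before a start, and in DDR2 it begins at base 11 of the transcript. The sterol element of SLC1A4 begins 51 bases before the other start of that gene.
ASNS, chr7:97872458-97872487, minus strand: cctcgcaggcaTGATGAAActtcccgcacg
DDR2, chr1:162632463-162632492, plus strand: tcaaaggcatcTTGCATCAgcctgtggatg
GARS1, chr7:30594834-30594863, plus strand: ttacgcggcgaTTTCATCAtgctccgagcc
MTHFD1L, chr6:150866346-150866375, plus strand: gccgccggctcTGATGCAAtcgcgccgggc
SLC1A4, chr2:64989381-64989410, plus strand: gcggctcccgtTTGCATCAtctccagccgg
SLC38A1, chr12:46266502-46266531, minus strand: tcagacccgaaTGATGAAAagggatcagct
SLC1A4, sterol element, chr2:64988418-64988447, plus strand: actggaagtgGTGGCGTGAgagctctgttt

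Genes of the ER stress response moved in the same direction. Of 18 ER chaperones and unfolded protein response genes 4 rose and none fell, 10 rose without nilotinib replicate 1, and in 14 all lapatinib libraries lay above all DMSO libraries (against 7.84% of all genes). The median log2 FC of the list was 0.36. HSPA5 (chr9:125234853-125241343), the ER chaperone BiP, stood at 855, 892 and 866 CPM in DMSO and at 1860, 1970 and 1680 CPM with lapatinib (log2 FC 1.08 ± 0.187, adjusted p = 0.0168). The co-chaperones DNAJC3 and DNAJB11 rose by 0.51 and 0.33 (adjusted p = 0.0116 and 0.0283), and SEL1L, an adaptor of ER-associated degradation, by 0.47 (0.0209). CANX, a lectin chaperone of the ER outside the list, rose from 1850, 1680 and 1750 CPM to 2090, 2030 and 2100 CPM (log2 FC 0.24, adjusted p = 0.0467). XBP1, a transcription factor of the unfolded protein response, had a log2 FC of 0.70 (adjusted p = 0.0528, and 0.000285 without nilotinib replicate 1). HSP90B1 and CALR, abundant ER chaperones, differed by 0.12 and 0.14 (adjusted p = 0.912 and 0.615). Each of the 4 risen members lost the call in 5 or 6 of the 6 fits that left out a DMSO or lapatinib library from the 21 (highest adjusted p = 0.163), and kept it in all 6 such fits without nilotinib replicate 1.

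Genes of cholesterol synthesis and uptake formed another group of higher genes. Of 23 tested members 6 rose and none fell, 6 rose also without nilotinib replicate 1, and in 15 all lapatinib libraries lay above all DMSO libraries (against 7.84% of all genes). The median log2 FC was 0.22. INSIG1 (chr7:155297878-155310235) stood at 113, 101 and 111 CPM in DMSO and at 200, 176 and 191 CPM with lapatinib (log2 FC 0.80 ± 0.083, adjusted p = 7.41e-05). MSMO1 (chr4:165327669-165343164), a sterol demethylase, rose from 55.5, 47.0 and 52.6 CPM to 87.9, 78.4 and 79.3 CPM (log2 FC 0.66 ± 0.069, adjusted p = 7.41e-05). STARD4 (chr5:111496033-111512535), a carrier of cholesterol, rose from 14.6, 13.0 and 13.3 CPM to 24.2, 22 and 24 CPM, with a log2 FC of 0.78 ± 0.094 (adjusted p = 0.000354). These 3 genes had the largest rises of the list and passed when any of the 6 libraries was left out. The enzymes SQLE, IDI1 and CYP51A1 rose by 0.47, 0.42 and 0.37 (adjusted p = 0.0202, 0.0213 and 0.0116), and in each the groups did not overlap, but each lost the call in at least 4 of the 6 fits that left out a library from the 21. HMGCS1, an enzyme at the start of the pathway, had a log2 FC of 0.47 (adjusted p = 0.099). SREBF2, which encodes SREBP2, was at 112 to 122 CPM in DMSO and at 117 to 131 CPM with lapatinib (95% interval of the log2 FC −0.03 to 0.22). The 11 tested genes of fatty acid synthesis, regulated by the related factor SREBP1, had a median log2 FC of −0.01, and none passed the test.

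Among 9 tested targets of LXR, the nuclear receptor that answers high sterol, MYLIP fell. MYLIP, a ubiquitin ligase, stood at 1.78, 2.14 and 2.47 CPM in DMSO and at 1.21, 1.22 and 1.20 CPM with lapatinib (log2 FC −0.81 ± 0.144, adjusted p = 0.0182). ABCA1, the cholesterol exporter, was at 5.73, 5.13 and 5.14 CPM in DMSO and at 2.93, 3.07 and 3.96 CPM with lapatinib, but did not pass (log2 FC −0.69, adjusted p = 0.107, and 0.0774 without nilotinib replicate 1). The median of this list was 0.02.

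Several risen genes stood outside these lists. PLAT (chr8:42174718-42207565), the tissue-type plasminogen activator, was at 147, 164 and 148 CPM in DMSO and at 274, 268 and 280 CPM with lapatinib (log2 FC 0.84 ± 0.098, adjusted p = 0.00027). LIPG, an endothelial lipase, rose from 14.5, 14.3 and 14.7 CPM to 21.2, 21.7 and 21.7 CPM (log2 FC 0.57 ± 0.072, adjusted p = 0.000541), and passed, like PLAT, when any of the 6 libraries was left out. PCK2, the mitochondrial phosphoenolpyruvate carboxykinase, rose by 0.98 (adjusted p = 0.043) and ULBP1, a ligand of the natural killer cell receptor NKG2D, by 0.93 (0.0209). PTX3, a pentraxin of innate immunity, rose by 0.81 (adjusted p = 0.0467), OGT, the O-GlcNAc transferase, by 0.79 (0.0404), and SLFN5, of the Schlafen family, by 0.79 (0.041). PCK2, MTHFD2, PTX3 and SLC6A9 overlap the genes NRL, SLC4A5, VEPH1 and CCDC24, and SLC7A5 an antisense gene, and the counting did not use strand, so that reads of overlapping genes cannot be told apart. This limit also holds for IDI1 (WDR37 and IDI2-AS1), CERT1 (POLK), INSIG1 (INSIG1-DT), STARD4 (STARD4-AS1), CYP51A1 (CYP51A1-AS1) and PTPRK (PTPRK-AS1), among others.

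Further genes outside the lists rose less. RNF145, a ubiquitin ligase of the ER membrane, rose by 0.47 (adjusted p = 0.0116), SPTLC2, a subunit of the enzyme that starts sphingolipid synthesis, by 0.49 (0.0182), and CERT1, which carries ceramide from the ER to the Golgi, by 0.39 (0.0202). FST, the activin antagonist follistatin, rose from 22.7, 20.4 and 21.5 CPM to levels between 30 and 34.1 CPM (log2 FC 0.54, adjusted p = 0.0342). DHRS3, a retinaldehyde reductase, and DDR2, a collagen receptor kinase, rose by 0.55 and 0.43 (adjusted p = 0.0212 and 0.0454). IVNS1ABP and SH3BP5L rose by 0.49 and 0.32 (adjusted p = 0.0219 and 0.04).

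The 9 lower genes did not fall into a common list. EDN1 (chr6:12230516-12297194), which encodes the peptide endothelin-1, stood at 9.10, 8.34 and 7.90 CPM in DMSO and at 5.56, 5.80 and 5.11 CPM with lapatinib (log2 FC −0.62 ± 0.083, adjusted p = 0.00109). PTPRK, a receptor tyrosine phosphatase, fell from 2.81, 2.20 and 4.01 CPM to 0.899, 0.984 and 0.913 CPM (log2 FC −1.69 ± 0.312, adjusted p = 0.0208). CYP1B1, a cytochrome P450 induced by the aryl hydrocarbon receptor, fell from 16.3, 13.2 and 13.8 CPM to 9.48, 8.62 and 10.3 CPM (log2 FC −0.61, adjusted p = 0.0202). It was the only one of 9 tested targets of this receptor to pass, and the median of that list was −0.15. RAB7B, a small GTPase of late endosomes, DGKI, a diacylglycerol kinase, and CD83, a surface protein of immune cells, fell by 0.51, 0.49 and 0.36 on the log2 scale (adjusted p = 0.0467, 0.0411 and 0.0202). Each lost the call in all 6 fits that left out a DMSO or lapatinib library from the 21. Without nilotinib replicate 1, RAB7B lost it in all 6 such fits, DGKI in 3 and CD83 in 2. ATP23 was called as well, but its DMSO libraries, at 1.24, 0.0518 and 1.55 CPM, overlapped the lapatinib libraries at 0.0719, 0.0181 and 0.0369 CPM, and its value rests on 2 of the DMSO libraries.

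Few genes of the pathways that lapatinib targets passed under any choice of libraries, and none with all 21. EGFR stood at 183, 216 and 173 CPM in DMSO and at 153, 188 and 178 CPM with lapatinib (95% interval of the log2 FC −0.34 to 0.06), and ERBB2 at 33.9, 42.0 and 36.7 CPM against 32.5, 38.6 and 38.0 CPM (interval −0.28 to 0.19). None of 10 tested ERBB receptors and ligands passed (median log2 FC −0.08), none of 10 feedback inhibitors of these receptors (0.03), none of 19 ERK feedback genes and ERK targets (0.08) and none of 18 immediate-early genes (−0.08). DUSP6, a phosphatase induced by ERK, was at 33.7, 33.4 and 32.3 CPM in DMSO and at 39.7, 35.0 and 38.8 CPM with lapatinib (log2 FC 0.19, adjusted p = 0.68). Among 19 FOXO targets and genes of PI3K-AKT feedback none passed (median 0.00). TXNIP, a thioredoxin-binding protein of this list, stood at 40.3, 35.5 and 38.6 CPM in DMSO and at 15.1, 13.1 and 20.6 CPM with lapatinib, with an adjusted p of 0.154 with all 21 libraries and 0.000208 without nilotinib replicate 1 (log2 FC −1.23). KLHL24 and FBXO32, induced by FOXO factors, had log2 FCs of 0.54 and 0.37 (adjusted p = 0.113 and 0.0584, and 0.0673 and 0.0186 without nilotinib replicate 1). With the 6 libraries alone TXNIP, KLHL24 and, of the ERK list, the phosphatase gene DUSP5 passed (adjusted p = 0.00899, 0.0124 and 0.039).

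Other lists held few or no called genes. TXNRD1, a thioredoxin reductase, was the only one of 16 NRF2 targets to pass (log2 FC 0.27, adjusted p = 0.045), and it overlaps the gene EID3. Without nilotinib replicate 1 SLC7A11, also of this list, passed as well, and with the 6 libraries alone 3 members passed, TXNRD1 not among them (adjusted p = 0.162). The 16 inflammatory cytokines and NF-κB feedback genes had a median of −0.22, with 6 members lower in all lapatinib libraries than in all DMSO libraries (against 7.83% of all genes), and none passed. None of 34 cell cycle and DNA replication genes passed (median −0.11, with 11 lower without overlap, against 7.83% of all genes), and without nilotinib replicate 1 the kinase inhibitor gene CDKN2C did (log2 FC −0.30, adjusted p = 0.0601 and 0.00268). None passed among 34 genes of the DNA damage response (median −0.01), 16 transcriptional CDKs and cyclins (−0.09), 14 p53 targets (0.08), 15 genes of the BCL2 family (−0.03), 22 of hypoxia and glycolysis (0.04), 28 of lysosomes and autophagy (0.00) and 24 of the extracellular matrix (−0.06). EDN1 was the only one of 21 targets of TGF-β, SRF and YAP to pass (median −0.06). ABCG2, the drug efflux pump, stood at 26.0, 20.8 and 24.9 CPM in DMSO and at 25.4, 21.1 and 21 CPM with lapatinib (95% interval of the log2 FC −0.33 to 0.16), and none of the 10 tested ABC transporters passed (median −0.01). The 13 mitochondrially encoded mRNAs had a median of 0.15, and none passed.

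Nilotinib, an inhibitor of ABL, DDR and other kinases, was set against lapatinib to see which of these changes separate both drugs, at 1 μM and 3.16 μM, doses that differ. Over all genes, 57 were higher with lapatinib (0.355%) and 88 lower (0.549%), and without nilotinib replicate 1 66 were higher (0.405%) and 48 lower (0.295%). Leaving out any other lapatinib or nilotinib library gave 13 to 26 higher and 25 to 45 lower genes, and fitting these 6 libraries alone with the replicate number as a block 484 and 523. Under scaling to the mitochondrial mRNAs 6 were higher and 10 lower, and under library size alone 68 and 65. The comparison uses the same lapatinib libraries as that with DMSO, so that genes chosen as high in those libraries lean towards a difference.

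Of the 23 tested sterol genes 8 were higher with lapatinib than with nilotinib and none lower, and 7 were higher without nilotinib replicate 1. The median log2 difference over the 23 was 0.22, and 0.17 without nilotinib replicate 1. Of the 6 that lapatinib raised over DMSO, all were higher than with nilotinib, but under mitochondrial scaling only INSIG1 was. INSIG1 was at 126, 119 and 119 CPM with nilotinib, below all lapatinib libraries, and the log2 difference was 0.64 (adjusted p = 0.000442, 95% interval 0.47 to 0.81, and adjusted p = 0.0407 under mitochondrial scaling). MSMO1 was at 59.3, 54.3 and 52.6 CPM with nilotinib (difference 0.56, adjusted p = 0.000274, and 0.0687 under mitochondrial scaling). HMGCS1, which had not passed against DMSO, differed by 0.65 from nilotinib (adjusted p = 0.00686, and 0.021 without nilotinib replicate 1). ABCA1, of the LXR list, was lower with lapatinib than with nilotinib by 1.07 on the log2 scale (difference −1.07, adjusted p = 0.0025). Of the 9 tested members of that list, 1 was lower with lapatinib and 1 higher, and without nilotinib replicate 1, 1 was lower and none higher.

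For the integrated stress response genes the answer depended on nilotinib replicate 1. With all libraries 2 of 61 were higher with lapatinib and none lower, and without it 18 were higher and none lower. ATF4 was at 261 CPM in nilotinib replicate 1 and at 115 and 118 CPM in the other nilotinib libraries, while lapatinib libraries lay between 146 and 175 CPM. Its log2 difference, lapatinib minus nilotinib, was 0.00 with all libraries (95% interval −0.41 to 0.41, adjusted p = 1.0) and 0.50 without nilotinib replicate 1 (adjusted p = 0.00356). PSAT1 was at 293, 134 and 137 CPM with nilotinib, and its difference was 0.19 with all libraries (adjusted p = 0.795) and 0.67 without replicate 1 (0.00384). The same held for DDIT4, which was at 19.8, 6.48 and 7.38 CPM with nilotinib (0.83, adjusted p = 0.209, and 1.52, adjusted p = 0.000226). Of the 18 ER genes, 2 were higher with lapatinib with all libraries and 9 without nilotinib replicate 1. HSPA5 was at 2170 CPM in that library and at 999 and 1050 CPM in the others (difference 0.38, adjusted p = 0.449, and 0.84, adjusted p = 5.16e-05).

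Of 19 tested FOXO targets and PI3K-AKT feedback genes, 3 were higher with lapatinib than with nilotinib and none lower. Their list had a median log2 difference of 0.20. The same counts held without nilotinib replicate 1, against 0.355% and 0.405% of all genes that were higher with all libraries and without it. Some genes of other lists or of none separated both drugs under either choice of libraries. FST was at 18.6, 16.4 and 15.2 CPM with nilotinib, below the lapatinib libraries (difference 0.91, adjusted p = 0.000274). RAB7B was at 11.1, 9.76 and 11 CPM with nilotinib, 4.02, 4.31 and 4.62 CPM with lapatinib and 6.17, 6.09 and 6.22 CPM in DMSO, and differed between the drugs by −1.30 (adjusted p = 3.73e-06). EDN1 and CD83 were lower with lapatinib than with nilotinib (differences −0.48 and −0.44, adjusted p = 0.00755 and 0.00217). Under mitochondrial scaling EDN1 and CD83 did not pass (adjusted p = 0.408 and 0.621), while FST and RAB7B did (0.00158 and 8.75e-05). CYP1B1 was at 7.42, 8.89 and 9.03 CPM with nilotinib, overlapping the lapatinib libraries (interval of the difference −0.07 to 0.40).

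**Figure D2:**
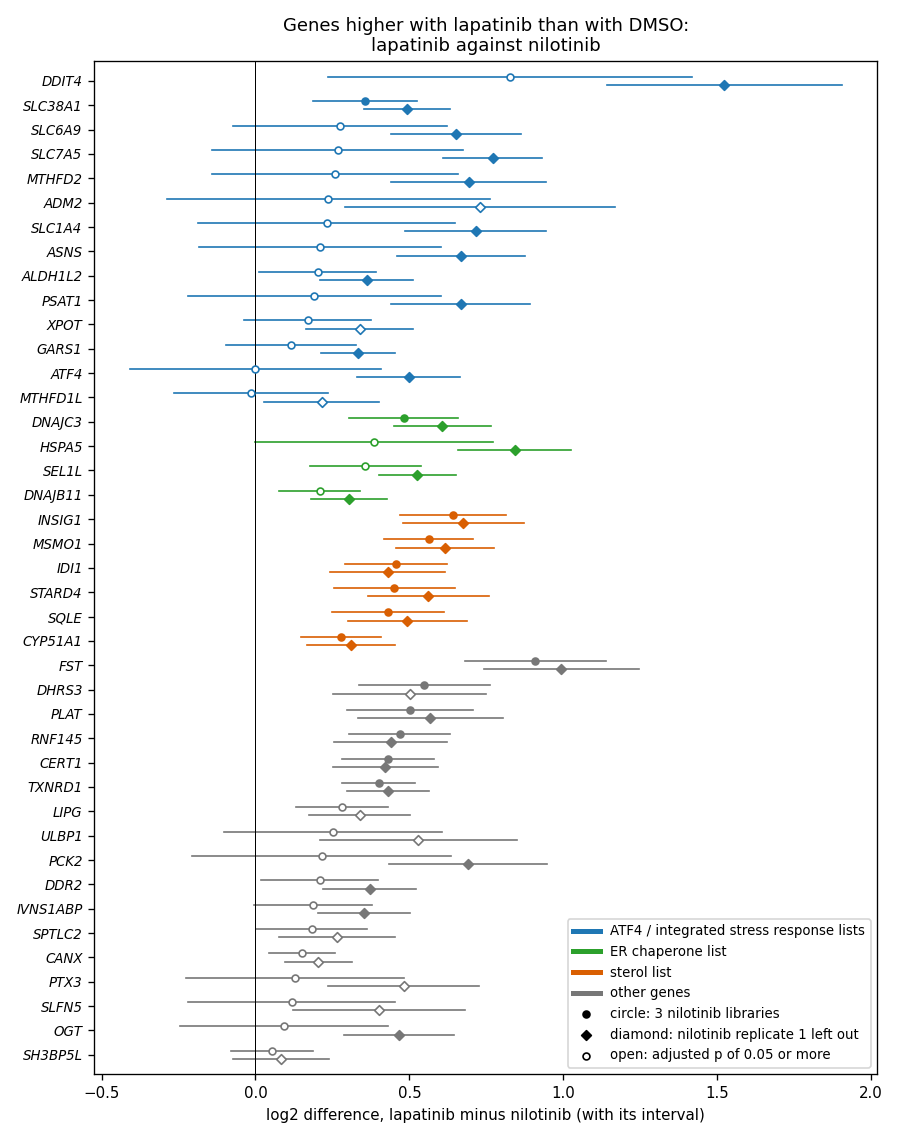
Log2 difference between lapatinib and nilotinib with its 95% interval (horizontal axis) for the 41 genes higher with lapatinib than in DMSO, by gene group, with all 3 nilotinib libraries (circles) and without nilotinib replicate 1 (diamonds), filled where the adjusted p-value is under 0.05. For the 6 sterol genes both symbols are filled and close together, while for ATF4 the difference moves from 0.00 to 0.50 and for HSPA5 from 0.38 to 0.84.

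Lapatinib was also added to 0.1 μM THZ531, which compares other libraries than those described so far. There 5620 genes were higher (35.0%) and 5786 lower (36.1%), under library size alone 3449 were higher and 7318 lower, and under scaling to the mitochondrial mRNAs 789 were higher and 9123 lower, with a median log2 FC over all genes of −0.65 in place of 0.03. Against this background, 16 of the 41 genes that lapatinib alone raised were higher when lapatinib was added to THZ531, 15 were lower and 10 did not pass. This split depended on the scaling, with 9 higher and 20 lower under library size alone and 3 higher (ATF4, HSPA5 and DDIT4) and 25 lower under scaling to the mitochondrial mRNAs. ATF4 rose from 72.9 ± 4.90 (SD, n = 3) to 185 ± 9.79 CPM (log2 FC 1.34, adjusted p = 5.36e-06, and 0.65, adjusted p = 0.000758, under mitochondrial scaling), and HSPA5 from 870 ± 21.6 to 2430 ± 317 CPM (1.49, adjusted p = 7.48e-07, and 0.80, adjusted p = 1.91e-05). DDIT4 rose from 6.47 ± 0.938 to 36.1 ± 3.25 CPM (log2 FC 2.48, adjusted p = 3.17e-07, and 1.79, adjusted p = 9.07e-09, under mitochondrial scaling). In contrast, INSIG1 fell from 121 ± 5.33 to 69.0 ± 4.74 CPM (log2 FC −0.81, adjusted p = 4.01e-08), PLAT from 156 ± 10.1 to 83.0 ± 8.24 CPM (−0.91, adjusted p = 7.75e-08) and SLFN5 from 7.91 ± 0.623 to 1.18 ± 0.0702 CPM (−2.75, adjusted p = 1.09e-10). Against DMSO, these 3 genes were also lower with 1 μM THZ531 alone (log2 FC −1.06, −0.65 and −2.34). The same held with nilotinib and 0.1 μM THZ531 (−1.13, −0.98 and −3.32). Which drug these falls rest on was not tested. MSMO1 rose from 54.6 ± 2.69 to 70.4 ± 1.08 CPM (log2 FC 0.37, adjusted p = 9.18e-05), but under mitochondrial scaling its estimate was negative and did not pass (−0.32, adjusted p = 0.0506). Of the 9 genes that lapatinib alone lowered, 7 were lower also here and MYLIP was higher, from 2.24 ± 0.157 to 3.44 ± 0.316 CPM (log2 FC 0.62, adjusted p = 0.000543, and −0.07, adjusted p = 0.788, under mitochondrial scaling). With 1 μM THZ531 alone, DGKI, RAB7B and PTPRK were lower than in DMSO as well (log2 FC −1.23, −1.40 and −1.225). CD83 and EDN1 were higher there (0.26 and 0.24), and CYP1B1 differed by 0.02. The difference between both effects of lapatinib, with and without THZ531, passed for 60.3% of all genes.

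**Figure D3:**
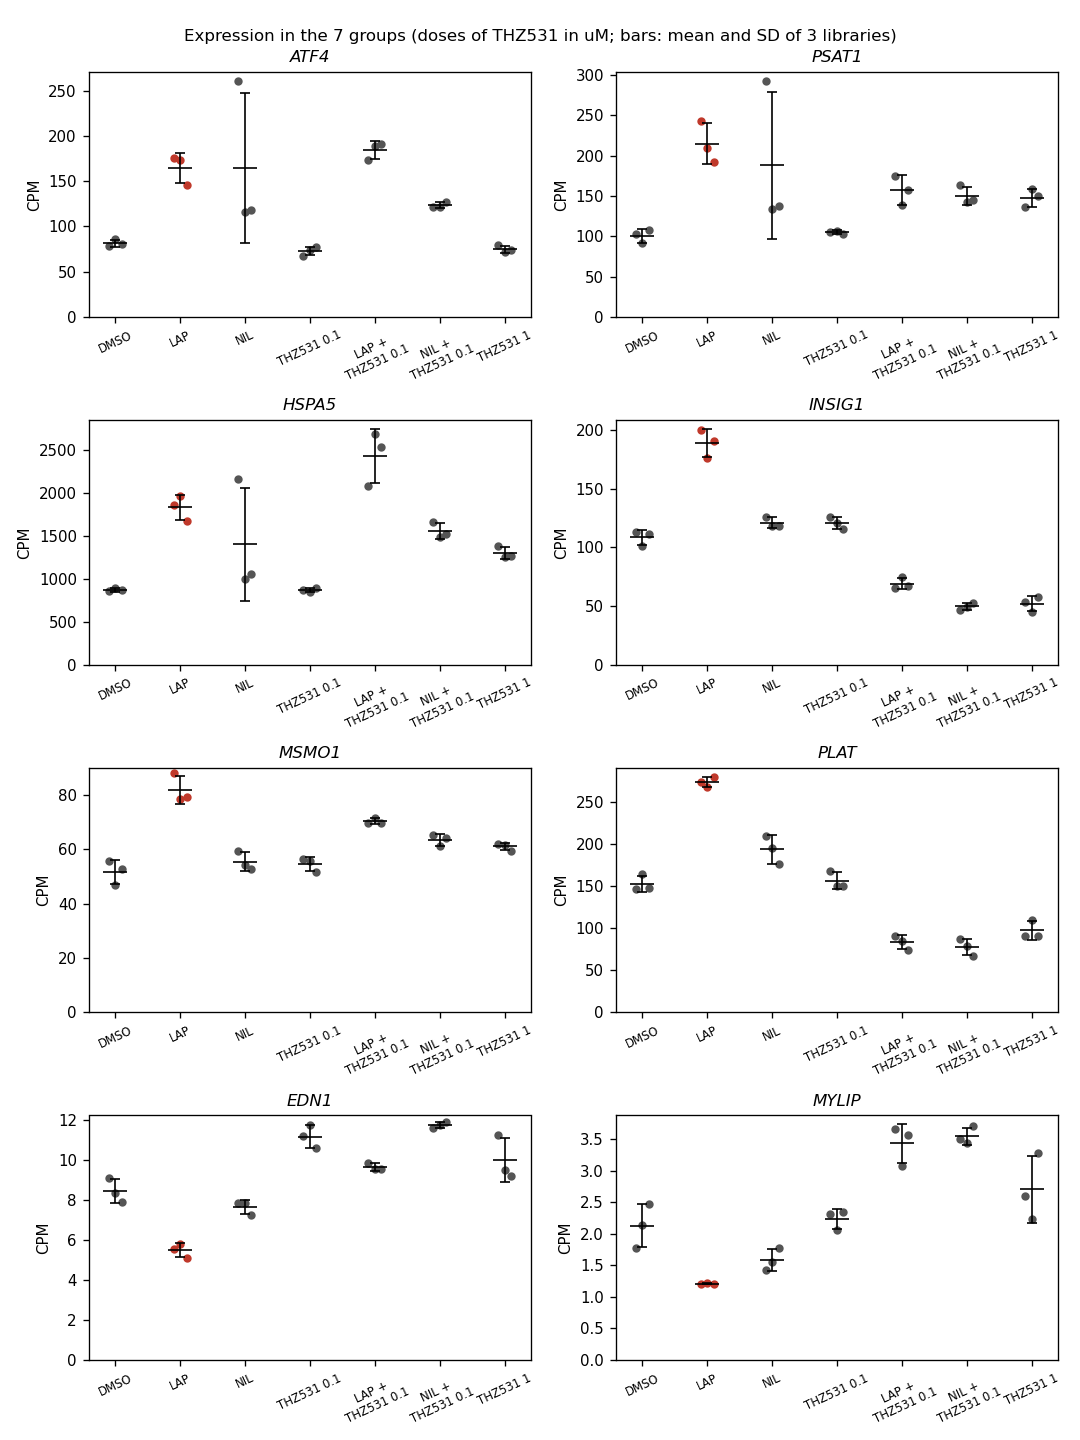
Level in CPM (vertical axes, from 0) of 8 genes in each library of the 7 groups, with lapatinib in red and the mean and SD of 3 libraries as bars, where LAP is lapatinib and NIL nilotinib. Nilotinib replicate 1 lies far above the other nilotinib libraries in ATF4 (261 CPM), PSAT1 (293 CPM) and HSPA5 (2170 CPM) but not in INSIG1 (126 CPM), and INSIG1 and PLAT are higher with lapatinib alone and lower with lapatinib and THZ531.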

How the data were processed

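PolyA-selected, unstranded RNA-seq of Hs578T cells came as 1 count table of 21 libraries. The authors deposited raw counts per NCBI gene, not normalized. The submitters' processing notes name HISAT2 (2.1.0), featureCounts, DESeq2 and build GRCh38, and the gene annotation is not given in the sources used here. Gene names, coordinates and promoters came from RefSeq (GRCh38.p14), which matched 27745 of 28395 rows.

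Genes were filtered with edgeR (4.0.16, filterByExpr) and scaled by TMM. 1 mean per group was fitted to all 21 libraries (glmQLFit), and contrasts were tested two-sided with glmQLFTest in R (4.3.3), with Benjamini-Hochberg adjustment over all genes tested. SEs were derived from the F statistic. The scripts were checked on simulated data. Depth limits precision for genes of few counts, and intervals cover the spread between libraries only.

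Named genes were the 20 largest rises and 10 largest falls with an adjusted p-value under 0.05 and no overlap between groups, of which 8 falls existed. The rule also admitted the remaining called genes and members of the 31 gene lists. Some genes that the rule admits are not reported here. The comparison, members and lists were chosen with earlier results of these data known. Alternatives were other scalings (relative log expression factors of edgeR, library size, mitochondrial mRNAs), filters, halved counts and the Wald test of DESeq2 (1.42.0). The compared groups alone, a replicate block and each replicate left out were run as well. Leaving out nilotinib replicate 1 and the interaction with THZ531 were added after seeing the data.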

Additional observations from a re-analysis of the deposited data

Results flagged for a closer look

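For 19 of the 28 genes named for their change with lapatinib alone, the effect of lapatinib differed when 0.1 μM THZ531 was present, by the interaction term of the edgeR quasi-likelihood fit at an adjusted p-value under 0.05, which 60.3% of all genes passed. 18 of them are given here. The values are the log2 effect of lapatinib with THZ531 minus that without it, and the genes were chosen for the latter, so that a value opposite to the effect alone is favoured. Among genes of the integrated stress response it was −1.04 for ADM2, −0.82 for SLC7A5, −1.46 for SLC1A4 and −0.76 for SLC6A9, and 1.03 for DDIT4. It was −1.61 for INSIG1, −0.76 for STARD4 and −0.30 for MSMO1 among the sterol genes. Of the other risen genes it was −0.91 for PCK2, −2.30 for ULBP1, −1.75 for PLAT, −1.02 for PTX3, −1.70 for OGT and −3.54 for SLFN5. Of the fallen genes it was −1.51 for DGKI and −1.19 for RAB7B, and 0.41 for EDN1 and 1.43 for MYLIP. All these values hold for TMM scaling, under which the median over all genes was 0.03. That median was −0.27 under library size alone and −0.52 under mitochondrial scaling, so that the sign of a small value can depend on the scaling. With 1 μM THZ531 alone, INSIG1, PLAT, SLFN5, DGKI and RAB7B were also lower than in DMSO.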

How the results depend on the processing

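The count of genes called between lapatinib and DMSO (41 higher, 9 lower, of which 27 and 7 beyond a log2 FC of 0.5) varied between alternatives. Scaling to the mitochondrial mRNAs gave 23 higher and 12 lower (12 beyond 0.5), no filter 42 higher beyond 0.5, the 6 libraries alone 90 and 16 (59 and 12 beyond 0.5), DESeq2 99 and 31 (56 and 17), and 20 libraries without nilotinib replicate 1 85 and 18 (53 higher beyond 0.5). Leaving out 1 library gave 6 to 10 higher and 1 to 5 lower (6 to 8 and 1 to 5 beyond 0.5), and with nilotinib replicate 1 out as well 58 to 74 higher (72, 67 and 62 among them) and 10 to 14 lower (45 to 54 higher beyond 0.5, 50 among them). No named gene changed direction against DMSO under any alternative run. Of the 28, 8 lost the call under mitochondrial scaling and none without nilotinib replicate 1.

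Same-numbered DMSO and lapatinib libraries did not deviate together throughout (r = 0.494, 0.905 and −0.571 over 5155 genes), so the numbers were not taken as pairs. Nilotinib libraries were not compared in this way. Against nilotinib, the block on the groups alone gave 484 higher and 523 lower genes, and the groups alone without it 52 and 52. Whether same-numbered libraries there share variation was not tested. With the replicate block 51 genes were higher and 17 lower, including the 50 called without it, and with the block on the 6 libraries alone 136 and 39 (64 and 11 beyond 0.5).

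Against nilotinib (57 higher, 88 lower), mitochondrial scaling gave 6 and 10, the groups alone 52 lower, the block on those groups 484 and 523, DESeq2 155 and 266, and leaving out 1 library 13 to 66 higher and 25 to 48 lower. For lapatinib added to THZ531, library size alone gave 3449 higher and mitochondrial scaling 789 higher and 9123 lower, and for the interaction (4528 higher) they gave 2393 and 594. The cause of these shifts was not tested.

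Differences from nilotinib that changed sign were not called with all libraries. That of ATF4 was 0.025 under library size, 0.084 under mitochondrial scaling, 0.0 without a filter, 0.001 with at least 10 counts, 0.026 with the block, 0.002 in the groups alone, 0.108 with both, and −0.202 to 0.498 when 1 library was left out. That of MTHFD1L was 0.009, 0.049 and 0.012 under library size, mitochondrial scaling and the block on the groups alone, and −0.124 to 0.215 without 1 library. Leaving out 1 library gave −0.003 to 0.666 for PSAT1, −0.021 to 0.481 for PTX3, −0.085 to 0.467 for OGT, −0.008 to 0.401 for SLFN5, −0.138 to 0.047 for DGKI and −0.505 to 0.223 for PTPRK.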
